A study of Oryza sativa Japonica Group with 8 samples.

Results

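A set of 10 genes of iron homeostasis in rice was followed across all 8 leaf libraries of the series. They were chosen by name, by a rule that uses no measured value, although earlier results of these data were known, and they make up 10 of the 37869 genes in the deposited tables. They are the transcription factors IRO2 and IRO3, the nicotianamine synthases NAS1, NAS2 and NAS3, the Yellow Stripe-Like transporters YSL2 and YSL15, the iron transporter IRT1, and the ferritins FER1 and FER2. The libraries fell into 4 groups of 2. OsGRP3OE plants carried the coding region of OsGRP3, a glycine-rich RNA-binding protein, under the constitutive OsCc1 promoter in the japonica cultivar Nakdong, and non-transgenic (NT) Nakdong plants were their reference. OsGRP3KD plants carried an RNA interference construct against a piece of the OsGRP3 3′ untranslated region, driven by the OsGOS2 promoter in the cultivar Dongjin, and NT Dongjin plants were their reference. All plants were grown in soil, were not given a drought treatment before sampling, and were sampled as leaves. The labels and the study's methods give 4 weeks as their age, while a figure legend of the study gives 2 weeks for the sequenced plants. The labels do not say which transgenic line or how many plants stand behind a library. The p-values below therefore measure the spread between these libraries, part of which may be technical.

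Grasses take iron from soil mainly as a complex with phytosiderophores of the mugineic acid family, which are made from nicotianamine. Nicotianamine itself chelates iron and other metals inside the plant and travels with them in the phloem. When iron is short, rice switches on the genes for this route, most strongly in roots, through bHLH transcription factors, and when iron is plentiful it stores the metal in ferritin inside plastids and moves it into vacuoles. Genes for uptake and genes for storage are therefore known to respond to iron supply in opposite directions. Iron in the tissue or soil was not measured in these data.

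Each library held between 25836946 and 38940899 estimated counts. OsGRP3 (Os03g0670700) averaged 1728 ± 283 estimated counts per 1000000 (CPM) in OsGRP3OE, against 1211 ± 55.6 CPM in NT Nakdong, and 334.9 ± 14.5 CPM in OsGRP3KD, against 401.5 ± 2.3 CPM in NT Dongjin (SD, n = 2 each). Both differences had the labelled direction, and neither passed the quasi-likelihood test of edgeR (p adjusted by Benjamini-Hochberg, 0.0666 and 0.0761). The study reports larger changes of OsGRP3 in both kinds of transgenic plants, by qRT-PCR and by its own analysis of the RNA sequencing. The knockdown it reports is far deeper than the difference seen here. The NT Dongjin libraries stood apart from the other 6. Their coverage of first over last exons had a median log2 ratio of -0.87 and -0.80, against -2.92 to -2.53 elsewhere, and the summed level of 8 clock genes was 6220 and 6249 CPM, against 2352 to 2578 CPM elsewhere. Of these 8, 1 was called higher and 1 lower in NT Dongjin than in NT Nakdong. LHY, the higher one, was at 4100 and 4106 CPM in NT Dongjin, against 162 and 157 CPM in NT Nakdong. PRR1, the lower one, was at 2.03 and 2.49 CPM in NT Dongjin, against 22.5 and 23.0 CPM in NT Nakdong. In NT Dongjin the dividing cell list summed to 7.68 and 6.63 CPM, all of it from PCNA, against 12 to 15.9 CPM elsewhere. Of its 4 genes, 3 were called lower in NT Dongjin than in NT Nakdong. These were CYCB1-1, CYCB2-2 and CDKB2-1, each at 0 in both NT Dongjin libraries. The leaf list also differed there. Of its 7 genes, all present in every library, 5 were called lower and 1 higher in NT Dongjin than in NT Nakdong, and 5 were called higher and 1 lower in OsGRP3KD than in NT Dongjin, with LHCB1-1 at 16.5 and 16.4 CPM in NT Dongjin and 1675 to 2873 CPM elsewhere. Of 4 senescence genes, 2 were called higher in NT Dongjin than in NT Nakdong and lower in OsGRP3KD than in NT Dongjin. What set NT Dongjin apart, such as a time of harvest or a kind of library, was not tested. In OsGRP3KD against NT Dongjin it cannot be told apart from the RNA interference construct. In NT Dongjin against NT Nakdong it cannot be told apart from the cultivar. OsGRP3KD against NT Nakdong crosses cultivars, so there the construct cannot be told apart from the cultivar. Of 5 root marker genes, LSI2 and NRT2.1 were at 0 in every library. The root list summed to between 9.70 and 13.7 CPM, nearly all of it from LSI1, which was present in every library. A gene was called when it differed at least 2-fold with an adjusted p below 0.05 over the 24383 genes tested. Of the 10 iron genes, 9 passed the filter on low counts and YSL15 did not.

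**Figure D1:**
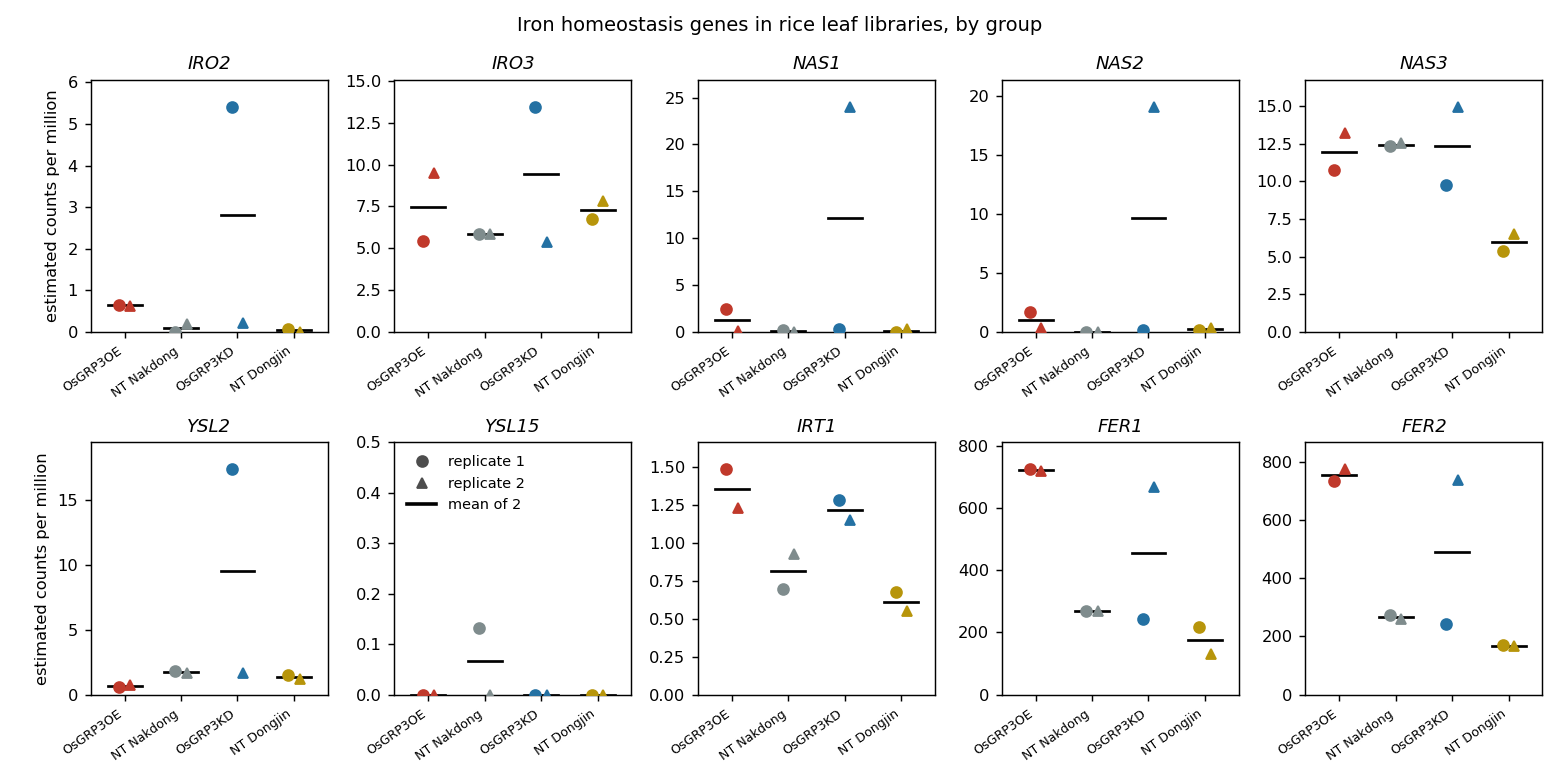
Level of each of the 10 iron homeostasis genes in the 8 leaf libraries, in CPM on a linear axis from 0, with 1 point for each library and a line at each group's mean. FER1 and FER2 were high in both OsGRP3OE libraries and in OsGRP3KD replicate 2, NAS1 and NAS2 stood out in OsGRP3KD replicate 2, and IRO2 and YSL2 stood out in OsGRP3KD replicate 1.

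Levels of different genes were compared as transcripts per 1000000 (TPM), a measure that allows for transcript length. The ferritins were the most abundant of the 10 genes in every group, at 625.9 ± 18.3 TPM for FER1 and 691.2 ± 50.6 TPM for FER2 in OsGRP3OE, against 244.2 ± 2.40 and 255.1 ± 9.55 TPM in NT Nakdong (SD, n = 2 each). FER1 and FER2 did not differ beyond their spread in OsGRP3KD or NT Dongjin. NAS3 and IRO3 came next in NT Nakdong, at 9.13 ± 0.0850 and 5.67 ± 0.0248 TPM. YSL2 and IRT1 followed at 0.958 ± 0.0636 and 0.634 ± 0.119 TPM. NAS1, IRO2 and NAS2 averaged 0.0633 ± 0.0606, 0.0360 ± 0.0509 and 0.0113 ± 0.0159 TPM in NT Nakdong, and these 3 neighbours did not differ beyond their spread. YSL15 averaged 0.0364 ± 0.0515 TPM in NT Nakdong, within that spread, and 0 TPM in OsGRP3OE, OsGRP3KD and NT Dongjin. In these leaves the storage genes were thus far above the uptake and synthesis genes in level.

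Ferritin is a shell of many subunits that stores iron in a mineral core, and the plant proteins are sent to plastids. FER1 (Os11g0106700, IRGSP-1.0 chr11:305050-307728, minus strand) and FER2 (Os12g0106000, chr12:320568-323716, minus strand) are near-identical copies in a duplicated part of chromosomes 11 and 12, so reads between them may have been split uncertainly and their sum is given as well. FER1 reached 724 and 717 CPM in OsGRP3OE, against 269.5 and 267.9 CPM in NT Nakdong. FER2 reached 734 and 773 CPM in OsGRP3OE, against 272 and 259.9 CPM in NT Nakdong. For both genes the 2 OsGRP3OE libraries lay close together and far above both NT Nakdong libraries. The fold was 2.68 for FER1 (log2 1.42 ± 0.40 SE) and 2.83 for FER2 (log2 1.5 ± 0.39 SE).

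Neither ferritin passed the adjusted threshold in the edgeR quasi-likelihood fit over all 8 libraries (adjusted p = 0.141 for FER1 and 0.111 for FER2). Summed, the ferritins gave 1474 ± 22.9 CPM in OsGRP3OE and 534.8 ± 10 CPM in NT Nakdong (SD, n = 2 each), with an edgeR adjusted p of 0.117. That fit takes each gene's spread from all groups, and the ferritins were spread widely in OsGRP3KD. Whether this set the outcome of the call was not tested. Fitted on the 4 libraries of the comparison, both were called with an edgeR adjusted p of 0.000434, where 1.71% of all genes tested were called. Fitted without the OsGRP3KD group, an alternative chosen after seeing the data, FER1 had an adjusted p of 0.00737 and FER2 of 2.6e-05 in edgeR, where 1.81% of genes were called. Both ferritins were called with either OsGRP3KD library left out. Leaving out OsGRP3KD replicate 1 gave edgeR adjusted p-values of 0.00805 for FER1 and 2.43e-05 for FER2, and leaving out OsGRP3KD replicate 2 gave 0.00762 and 2.5e-05. The fold stayed at 2.67 or more for FER1 and 2.82 or more for FER2 in all these fits and in DESeq2, where the adjusted p was 0.16 and 0.088. Thus the size of the ferritin difference in the overexpressor did not depend on the fit, and its call did. Both ferritins were also called over all 8 libraries with no filter on low counts, where 1.61% of genes tested were called.

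The ferritins differed between the OsGRP3KD libraries. FER1 was at 243 and 668 CPM in OsGRP3KD, against 217 and 131 CPM in NT Dongjin. FER2 was at 244 and 738 CPM in OsGRP3KD, against 169 and 166 CPM in NT Dongjin. OsGRP3KD replicate 2 held 2.75 times as much FER1 as replicate 1 (exact 95% counting interval 2.68 to 2.83) and 3.02 times as much FER2 (2.945 to 3.105), near the OsGRP3OE level, and replicate 1 lay near NT Nakdong. Read as a group of 2, the knockdown gave a mean that neither of its libraries was near. Against NT Dongjin both were called higher in edgeR, by 2.61-fold for FER1 (adjusted p = 0.0147) and 2.93-fold for FER2 (adjusted p = 0.00776). Without OsGRP3KD replicate 2 the log2 difference was 0.47 for FER1 (edgeR adjusted p = 0.118) and 0.54 for FER2 (edgeR adjusted p = 0.000837, below 2-fold), and neither was called. FER1 was also not called without NT Dongjin replicate 2 (log2 1.06, edgeR adjusted p = 0.105). The knockdown calls for ferritin therefore rested on OsGRP3KD replicate 2. Against NT Nakdong, the log2 difference of OsGRP3KD was 0.76 ± 0.40 for FER1 and 0.88 ± 0.39 for FER2 (edgeR adjusted p = 0.283 and 0.202). Without OsGRP3KD replicate 1 it became 1.3 and 1.46 (edgeR adjusted p = 0.0142 and 6.92e-05), and without replicate 2 it turned to -0.14 and -0.12.

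**Figure D2:**
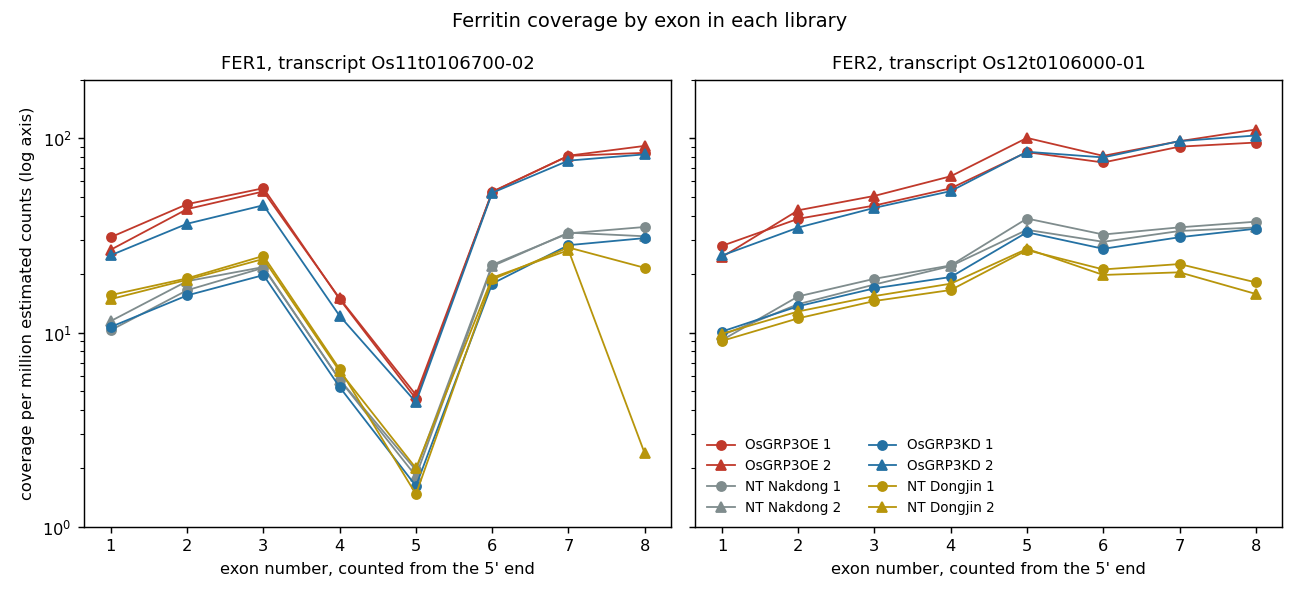
Coverage of the 8 exons of the main FER1 transcript and of the FER2 transcript in each library, in reads per base per 1000000 estimated counts on a log axis, by exon number from the 5′ end. The OsGRP3OE libraries and OsGRP3KD replicate 2 lie above the NT Nakdong libraries and OsGRP3KD replicate 1 along the transcripts, and the NT Dongjin lines have another slope, with the last FER1 exon at 2.39 in NT Dongjin replicate 2.

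Both ends of the ferritin transcripts separated the OsGRP3OE libraries and OsGRP3KD replicate 2 from the other 5, and the place of NT Dongjin depended on the exon. The last exon of FER2 had a depth-scaled coverage, in reads per base per 1000000 estimated counts, of 95.0 and 110.8 in OsGRP3OE, against 37.2 and 34.7 in NT Nakdong, and of 34.2 and 103 in OsGRP3KD, against 18.1 and 15.8 in NT Dongjin. Its first exon had 27.9 and 24.5 in OsGRP3OE, against 9.13 and 9.68 in NT Nakdong, and 10.1 and 24.9 in OsGRP3KD, against 9.06 and 9.85 in NT Dongjin. At the first exon OsGRP3KD replicate 1 and the non-transgenic libraries of both cultivars lay together, and at the last exon NT Dongjin lay below them. The first exon of FER1 was covered at 31.0 and 26.7 in OsGRP3OE, against 10.3 and 11.5 in NT Nakdong, and at 10.7 and 25.0 in OsGRP3KD, against 15.6 and 14.9 in NT Dongjin. The last exon of FER1 was covered at 84.1 and 91.3 in OsGRP3OE, against 34.9 and 31.3 in NT Nakdong, and at 30.6 and 82.6 in OsGRP3KD, against 21.5 and 2.39 in NT Dongjin. In FER1, NT Dongjin was thus above NT Nakdong and OsGRP3KD replicate 1 at the first exon and below them at the last. The low last exon of FER1 in NT Dongjin replicate 2 came with the lowest FER1 level of any library. When only the exon nearest the 3′ end was counted, FER2 was still called in OsGRP3KD against NT Dongjin and FER1 was not (log2 1.77, edgeR adjusted p = 0.101).

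Nicotianamine synthases join 3 molecules of S-adenosylmethionine into nicotianamine. NAS1 (Os03g0307300, chr3:10929507-10930895, minus strand) and NAS2 (Os03g0307200, chr3:10926469-10927729, plus strand) lie next to each other with their 3′ ends facing, are near-identical in sequence, and share the same uncertainty of read assignment. NAS1 had 9 and 647 estimated counts in OsGRP3KD, against 0 and 9 in NT Dongjin, and 71 and 4 in OsGRP3OE, against 5 and 1 in NT Nakdong. NAS2 had 5 and 514 estimated counts in OsGRP3KD, against 4 and 12 in NT Dongjin, and 49 and 8 in OsGRP3OE, against 0 and 1 in NT Nakdong. OsGRP3KD replicate 2 stood alone, at 24 CPM of NAS1 and 19.1 CPM of NAS2, and OsGRP3OE replicate 1 was second for both, at 2.45 and 1.69 CPM. OsGRP3KD replicate 2 exceeded OsGRP3KD replicate 1 by 83.3 times for NAS1 (exact 95% counting interval 43.6 to 183) and by 119 times for NAS2 (50.7 to 368.5). The NAS1 values of OsGRP3OE and NT Nakdong overlapped, and those of NAS2 did not.

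Against NT Dongjin, NAS1 and NAS2 were called higher in OsGRP3KD with edgeR (log2 6.35 ± 2.01, adjusted p = 0.0218, and log2 5.19 ± 1.70, adjusted p = 0.0252). Without OsGRP3KD replicate 2 the NAS1 difference was 1.02 (edgeR adjusted p = 0.679) and the NAS2 difference turned to -0.66 (edgeR adjusted p = 0.724). Their sum gave a log2 difference of 5.75 (edgeR adjusted p = 0.0213). The NAS1 and NAS2 calls thus rested on a single knockdown library. Both were also lost without NT Dongjin replicate 1 (edgeR adjusted p = 0.111 and 0.123) or replicate 2 (0.0734 and 0.0989). Against NT Nakdong the edgeR adjusted p was 0.0787 for NAS1 and 0.055 for NAS2, and it was 0.00896 and 0.00163 without OsGRP3KD replicate 1. NAS2 was also called there without OsGRP3OE replicate 1 (edgeR adjusted p = 0.0468) or replicate 2 (0.0478). In OsGRP3OE against NT Nakdong, 75 estimated counts of NAS1 over both libraries stood against 6, a depth-scaled ratio of 15.2 (exact 95% counting interval 6.68 to 42.9), and 57 of NAS2 stood against 1, a ratio of 69.5 (12 to 2793). Neither passed edgeR's test (adjusted p = 0.514 and 0.416). The counting intervals cover counting error only, and the libraries of a group differed by more than that.

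NAS3 (Os07g0689600, chr7:29323098-29324607, plus strand), the synthase known in rice for an expression in leaves that falls when iron is short, had another pattern. It was at 10.7 and 13.2 CPM in OsGRP3OE, against 12.3 and 12.6 CPM in NT Nakdong, and at 9.77 and 15.0 CPM in OsGRP3KD, against 5.38 and 6.51 CPM in NT Dongjin. The NT Dongjin libraries were the low ones and the other 6 overlapped. NAS3 was called 2.07-fold higher in OsGRP3KD than in NT Dongjin (log2 1.05 ± 0.22, edgeR adjusted p = 0.00258) and lower in NT Dongjin than in NT Nakdong (log2 -1.06 ± 0.22, edgeR adjusted p = 0.0023). In NAS3 level NT Dongjin stood apart from the other 3 groups. It differed by -0.01 on the log2 scale between OsGRP3KD and NT Nakdong (edgeR adjusted p = 0.984) and by -0.05 between OsGRP3OE and NT Nakdong (edgeR adjusted p = 0.943). On counts of the exon nearest the 3′ end the difference was 0.46 between OsGRP3KD and NT Dongjin (edgeR adjusted p = 0.0862) and -0.56 between NT Dongjin and NT Nakdong, below 2-fold. The 2-fold line was also missed without OsGRP3KD replicate 2 (log2 0.71 against NT Dongjin) and without NT Dongjin replicate 1 (0.92 against NT Dongjin, and -0.94 for NT Dongjin against NT Nakdong).

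Yellow Stripe-Like proteins carry metals bound to nicotianamine or phytosiderophores across membranes. YSL2 (Os02g0649900, chr2:26171617-26174918, minus strand) is known to carry iron and manganese bound to nicotianamine, mainly in the phloem. It was at 0.622 and 0.725 CPM in OsGRP3OE, against 1.855 and 1.68 CPM in NT Nakdong, and at 17.4 and 1.71 CPM in OsGRP3KD, against 1.54 and 1.215 CPM in NT Dongjin. Both OsGRP3OE libraries were below both NT Nakdong libraries, and OsGRP3KD replicate 1 stood far above the other 7. In OsGRP3OE, 38 estimated counts over both libraries stood against 121 in NT Nakdong, a depth-scaled ratio of 0.383 (exact 95% counting interval 0.259 to 0.555). The log2 difference of -1.38 ± 0.93 did not pass edgeR's test (adjusted p = 0.563). It passed without OsGRP3KD replicate 2 (log2 -1.39, edgeR adjusted p = 0.0341), and not without the OsGRP3KD group (edgeR adjusted p = 0.103).

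OsGRP3KD replicate 1 held 10.2 times as much YSL2 as replicate 2 (exact 95% counting interval 7.53 to 14.1). YSL2 was called 6.97-fold higher in OsGRP3KD than in NT Dongjin (edgeR adjusted p = 0.0172), and without OsGRP3KD replicate 1 the log2 difference was 0.31 (edgeR adjusted p = 0.566). The call was lost without NT Dongjin replicate 1 (edgeR adjusted p = 0.0688) or replicate 2 (0.0959) as well. Against NT Nakdong the log2 difference was 2.44 ± 0.81 (edgeR adjusted p = 0.104). It was 3.30 (edgeR adjusted p = 0.000411) without OsGRP3KD replicate 2 and -0.06 without replicate 1. YSL2 in OsGRP3KD thus matched the non-transgenic level in one library and was many times above it in the other.

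YSL15 (Os02g0650300, chr2:26200136-26204468, minus strand), the transporter through which rice roots take up iron bound to phytosiderophore, was not seen. It had 4 estimated counts in NT Nakdong replicate 1 and 0 in the other 7 libraries, where a count of 0 allows up to 3, and it was not tested. IRT1 (Os03g0667500, chr3:26286254-26292018, minus strand), a root transporter of ferrous iron, was low but present throughout. It was at 1.485 and 1.23 CPM in OsGRP3OE, against 0.696 and 0.929 CPM in NT Nakdong, and at 1.28 and 1.15 CPM in OsGRP3KD, against 0.677 and 0.550 CPM in NT Dongjin. In both pairs the transgenic libraries were above the non-transgenic ones without overlap, as were 22% of all genes tested in OsGRP3OE against NT Nakdong and 45.4% in OsGRP3KD against NT Dongjin. IRT1 was called in neither pair (log2 0.73 ± 0.41, edgeR adjusted p = 0.471 in OsGRP3OE, and 0.99 ± 0.42, edgeR adjusted p = 0.0674 in OsGRP3KD). With a filter of at least 10 counts in every library it was called in OsGRP3KD against NT Dongjin (log2 1.03, edgeR adjusted p = 0.0223). It rested on 18 to 43 estimated counts in a library and overlaps a gene on the other strand, Os03g0667400. In bulk leaf libraries such as these, fewer cells of a type and less RNA per cell cannot be told apart.

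IRO2 and IRO3 are bHLH transcription factors that iron shortage is known to switch on in rice. IRO2 activates the genes for phytosiderophore synthesis and uptake, and IRO3 is known as a repressor in the response to iron shortage. IRO2 (Os01g0952800, chr1:41971444-41978093, minus strand) had 169 and 6 estimated counts in OsGRP3KD, against 2 and 0 in NT Dongjin, and 19 and 17 in OsGRP3OE, against 0 and 7 in NT Nakdong. IRO3 (Os03g0379300, chr3:15000100-15002140, plus strand) was at 13.5 and 5.38 CPM in OsGRP3KD, against 6.77 and 7.81 CPM in NT Dongjin, and at 5.42 and 9.50 CPM in OsGRP3OE, against 5.83 and 5.83 CPM in NT Nakdong. OsGRP3KD replicate 1 was the highest library for both. It held 24.3 times as much IRO2 as OsGRP3KD replicate 2 (exact 95% counting interval 10.9 to 67.2) and 2.50 times as much IRO3 (2.06 to 3.04). The 2 values of IRO3 in OsGRP3KD and in OsGRP3OE enclosed those of the non-transgenic pair.

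IRO2 was called higher in OsGRP3KD than in NT Dongjin (log2 6.25 ± 1.75, edgeR adjusted p = 0.0125), where 175 estimated counts over both libraries stood against 2, a depth-scaled ratio of 92.0 (exact 95% counting interval 25.1 to 766). Without OsGRP3KD replicate 1 the log2 difference was 2.58 (edgeR adjusted p = 0.268), and without NT Dongjin replicate 2 it was 5.16 (edgeR adjusted p = 0.0839). Against NT Nakdong the difference was 4.8 ± 1.48 (edgeR adjusted p = 0.083), and it was 5.72 (adjusted p = 0.0161) without OsGRP3KD replicate 2. The IRO2 excess was thus carried by OsGRP3KD replicate 1. In OsGRP3OE, 36 estimated counts of IRO2 stood against 7 in NT Nakdong, a ratio of 6.27 (2.75 to 16.7), without overlap of the libraries and with an edgeR adjusted p of 0.494. IRO3 passed no test, with log2 differences of 0.37 ± 0.39 in OsGRP3KD against NT Dongjin and 0.35 ± 0.40 in OsGRP3OE against NT Nakdong (edgeR adjusted p = 0.435 and 0.762). IRO2 overlaps Os01g0952900 on the other strand, and the long last exon of its main transcript had a depth-scaled coverage of at most 0.0106 in every library.

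**Figure D3:**
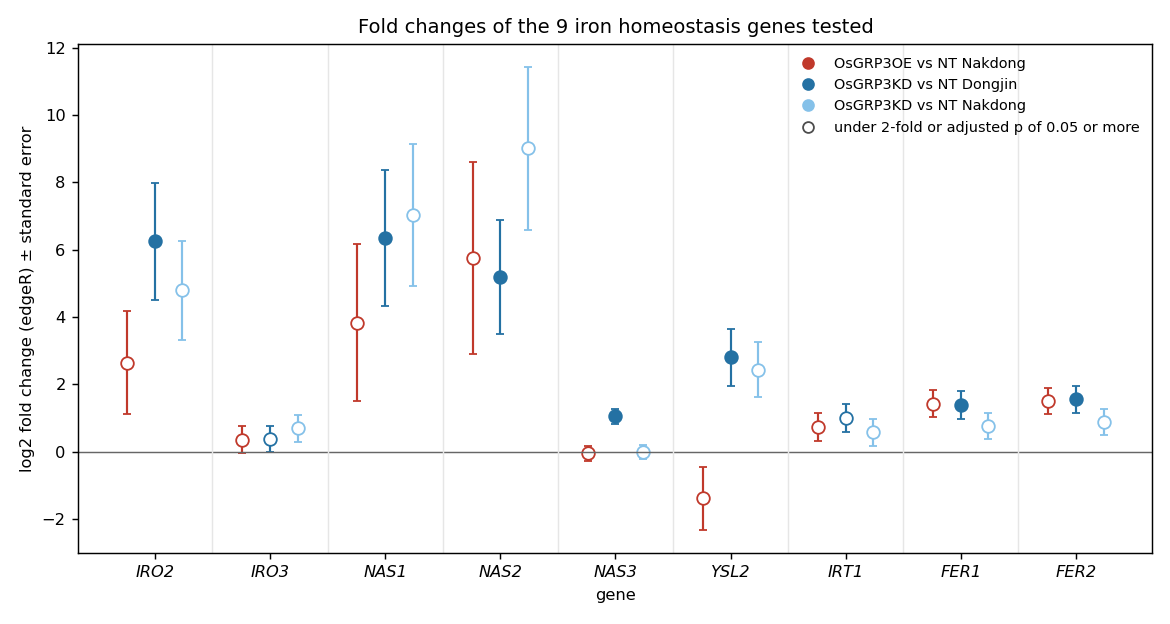
Log2 fold changes of the 9 iron homeostasis genes tested, from edgeR over all 8 libraries, with bars of 1 standard error and filled points for calls, for OsGRP3OE against NT Nakdong, OsGRP3KD against NT Dongjin and OsGRP3KD against NT Nakdong. NAS1, NAS2 and IRO2 have the longest bars, FER1 and FER2 lie at 1.42 and 1.5 in OsGRP3OE with short ones, and YSL2 is the one gene that lies well below 0 in OsGRP3OE, at -1.38.

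Counted over the genes, none of the 9 tested was called in OsGRP3OE against NT Nakdong with edgeR, where 0.619% of all genes tested were called higher and 0.853% lower. At an unadjusted p below 0.05 the ferritins were the 2 called, where 4.34% of all genes were, and DESeq2 called none at the adjusted threshold. IRO2, NAS2, IRT1, FER1 and FER2 were higher in both OsGRP3OE libraries than in both NT Nakdong libraries, as were 22% of all genes tested, and YSL2 was lower in both, as were 23.8%. The median log2 difference was 1.42 over the 9 genes, which is the value of FER1, against 0.00 over all genes tested. The 9 include the near-identical copies FER1 and FER2, and NAS1 and NAS2. Over 38 iron genes tested, the 9 among them, the median was 0.15. In OsGRP3KD against NT Dongjin 7 of the 9 were called higher and 0 lower, where 23.8% of all genes tested were called higher and 13.8% lower. All of these but NAS3 had OsGRP3KD libraries more than 2-fold apart. In OsGRP3KD against NT Nakdong, 0 of the 9 were called with edgeR, where 1.36% of all genes were called higher and 3.04% lower. IRO2, NAS1, NAS2 and YSL2 passed at an unadjusted p below 0.05, as did 8.51% of all genes, and DESeq2 called NAS1, NAS2 and YSL2. In NT Dongjin against NT Nakdong, NAS3 was called lower and no gene of the 9 higher, where 24.7% of all genes were called lower and 14.3% higher. The comparisons share libraries: NT Nakdong serves 3 of them and OsGRP3KD 2, so they are not independent.

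The change in OsGRP3OE differed from the change in OsGRP3KD, each against its own cultivar, for NAS3 and YSL2 among the 9 genes (log2 difference of the contrasts -1.10 ± 0.30, edgeR adjusted p = 0.0141, and -4.19 ± 1.25, adjusted p = 0.021), where 34% of all genes tested were called. The YSL2 difference was -1.69 without OsGRP3KD replicate 1 and -5.04 without replicate 2, still called in both cases, and it had an edgeR adjusted p between 0.0509 and 0.0671 without any single one of the other 6 libraries. The NAS3 difference was -0.97 without NT Dongjin replicate 1, -0.76 without OsGRP3KD replicate 2 and -0.96 without OsGRP3OE replicate 1, each below 2-fold. NAS2 was called for this difference only when OsGRP3KD replicate 2 was left out, at 6.42 (edgeR adjusted p = 0.0375). For FER1 and FER2 the contrasts differed by 0.04 ± 0.56 and -0.05 ± 0.54 (log2 ± SE, edgeR adjusted p = 0.974 and 0.959), a spread wide enough to hold a difference of 2-fold or more.

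The 2 OsGRP3KD libraries disagreed for most of these genes. IRO2, IRO3, NAS1, NAS2, YSL2, FER1 and FER2, 7 of the 9 tested, were more than 2-fold apart between the OsGRP3KD replicates, where 8.3% of all genes tested were. The replicates of OsGRP3OE were that far apart for 2 of the 9 (background 8.85%), those of NT Nakdong for 2 (3.88%) and those of NT Dongjin for 1 (4.87%). The median absolute log2 ratio of the replicates was 1.60 over the 9 genes in OsGRP3KD, against 0.207 over all genes tested, and 0.25 in OsGRP3OE, 0.138 in NT Nakdong and 0.321 in NT Dongjin. The genes did not move one way. Replicate 1 was the higher one for IRO2, IRO3 and YSL2, and replicate 2 for NAS1, NAS2, FER1 and FER2. This comparison was made after the values had been seen and carries no test.

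**Figure D4:**
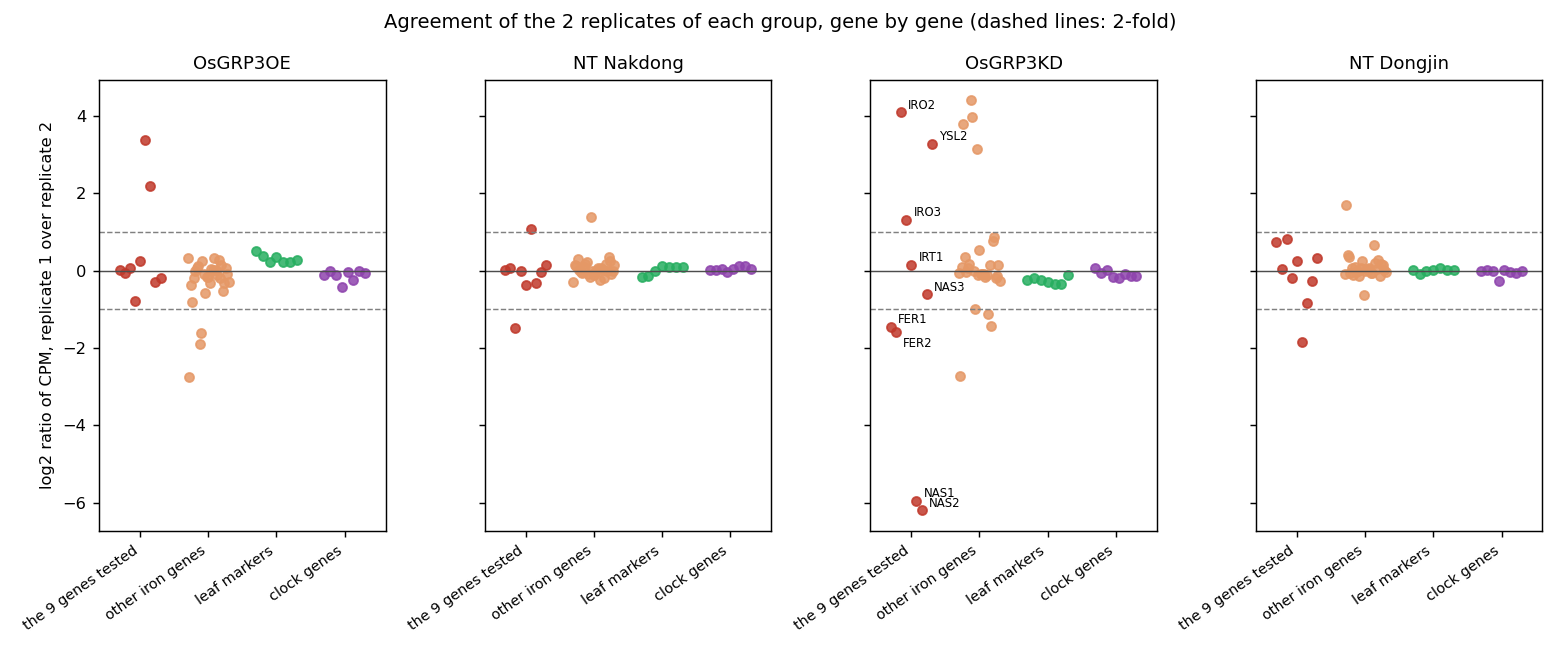
Log2 ratio of replicate 1 over replicate 2 in each of the 4 groups, gene by gene, for the 9 iron homeostasis genes tested, the other iron genes, the leaf markers and the clock genes, on CPM with dashed lines at 2-fold. In OsGRP3KD the iron homeostasis genes spread in both directions, from NAS2 at -6.20 to IRO2 at 4.09, and the leaf and clock genes lie between -0.35 and 0.06.

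Marker genes of tissue, age and time of day did not spread in this way in OsGRP3KD. None of 7 leaf, 8 clock or 4 senescence genes was more than 2-fold apart between its replicates, with log2 ratios of -0.35 to -0.11, -0.19 to 0.06 and -0.13 to 0.32. Of 4 genes of dividing cells 1 was. The summed root markers were 12.8 and 12.5 CPM in OsGRP3KD, all of it from LSI1, and the other root genes were at 0 in both. What set the OsGRP3KD libraries apart in iron genes was not tested.

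Other genes of iron transport, chelation and control, 33 in all with 29 tested, put these values in context. None was called in OsGRP3OE against NT Nakdong with edgeR, and 2 were at an unadjusted p below 0.05 (4.34% of all genes tested), while DESeq2 called 1 at the adjusted threshold, VIT2. In OsGRP3KD against NT Dongjin 8 were called higher and 7 lower, beside 23.8% and 13.8% of all genes tested, and against NT Nakdong 3 higher and 1 lower, beside 1.36% and 3.04%. In NT Dongjin against NT Nakdong 8 were higher and 2 lower, beside 14.3% and 24.7%. The difference of the 2 contrasts was called for 11, beside 34%. The median log2 difference of the 29 was 0.09 in OsGRP3OE against NT Nakdong and 0.39 in OsGRP3KD against NT Dongjin. The replicates of OsGRP3KD were more than 2-fold apart for 8 of the 29, and their median absolute log2 ratio was 0.17, so most of these genes agreed between the replicates and a few differed strongly.

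Of those that differed, 4 were high in OsGRP3KD replicate 1, and they were picked here after their values were seen. OsNramp1 (Os07g0258400), a metal transporter of the Nramp family, had 250 and 22 estimated counts in OsGRP3KD, against 5 and 5 in NT Dongjin, and replicate 1 held 9.81 times as much as replicate 2. Os01g0647200 had 4238 and 170 estimated counts in OsGRP3KD, against 50 and 67 in NT Dongjin, and 333 and 1191 in OsGRP3OE, against 176 and 202 in NT Nakdong. In CPM, both genes had their highest level of all 8 libraries in OsGRP3KD replicate 1. Os07g0142100 had 446 and 22 in OsGRP3KD, against 0 and 0 in NT Dongjin, and 26 and 81 in OsGRP3OE, against 6 and 6 in NT Nakdong. Os04g0578600 had 136 and 6 in OsGRP3KD, against 47 and 47 in NT Dongjin. All 4 were 9.81 to 21.5 times higher in OsGRP3KD replicate 1 than in replicate 2, the direction of IRO2, IRO3 and YSL2. The other 4 were higher in OsGRP3KD replicate 2, the direction of NAS1, NAS2 and the ferritins. They were VIT2, Os02g0306401 with 851 and 1474 estimated counts in the OsGRP3KD libraries, Os11g0135000 with 99 and 188, and Os11g0151500 with 0 and 15.

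Os03g0237100 and Os11g0135000 were called higher in OsGRP3KD against both non-transgenic groups, of which NT Nakdong is of another cultivar than OsGRP3KD. Os03g0237100, annotated as similar to a NADPH-dependent codeinone reductase, had 845 and 766 estimated counts in OsGRP3KD, against 306 and 424 in NT Dongjin and 371 and 588 in NT Nakdong. Its log2 difference was 1.22 ± 0.15 against NT Dongjin (edgeR adjusted p = 9.47e-05) and 1.01 ± 0.14 against NT Nakdong (adjusted p = 0.0051). Os11g0135000, annotated as an antiporter of the major facilitator superfamily, had 99 and 188 estimated counts in OsGRP3KD, against 66 and 53 in NT Dongjin and 48 and 61 in NT Nakdong, with log2 differences of 1.34 ± 0.41 (edgeR adjusted p = 0.018) and 1.68 ± 0.41 (adjusted p = 0.0413). Os03g0237100 agreed between the OsGRP3KD libraries, unlike the 7 genes above.

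**Figure D5:**
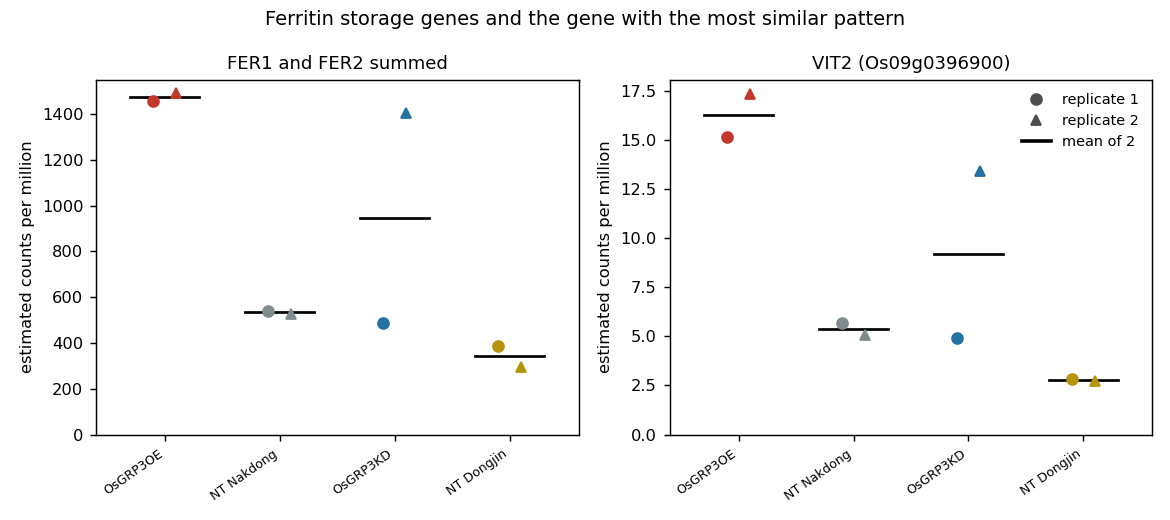
Summed level of FER1 and FER2 and level of VIT2 in the 8 libraries, in CPM on linear axes from 0, with 1 point for each library and a line at each group's mean. Both panels have the same order, with the OsGRP3OE libraries and OsGRP3KD replicate 2 at the top and the NT Dongjin libraries at the bottom.

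The gene whose pattern was most like that of the summed ferritins was VIT2 (Os09g0396900), a vacuolar iron transporter, with a Pearson r of 0.990 on log2 CPM over the 8 libraries among 18463 genes compared. Without OsGRP3KD replicate 2 the r was 0.991 over 7 libraries. VIT2 was at 15.2 and 17.3 CPM in OsGRP3OE, against 5.70 and 5.08 CPM in NT Nakdong, and at 4.93 and 13.4 CPM in OsGRP3KD, against 2.82 and 2.72 CPM in NT Dongjin. In OsGRP3OE it was 3.02-fold higher without overlap (log2 1.59 ± 0.37, edgeR adjusted p = 0.0786), and DESeq2 called it (adjusted p = 0.000531), as did edgeR on the 4 libraries of the comparison (adjusted p = 0.00252). Like the ferritins, it was 2.72 times higher in OsGRP3KD replicate 2 than in replicate 1 (exact 95% counting interval 2.24 to 3.30). Against NT Dongjin it was called higher in OsGRP3KD (log2 1.72 ± 0.40, edgeR adjusted p = 0.0047), and without OsGRP3KD replicate 2 the difference was 0.83, below 2-fold.

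The next 4 genes followed the ferritins with smaller amplitude: Os02g0706400, similar to RADIALIS (r = 0.975), Os03g0734900 with a CCT motif (0.975), Os09g0458400 (0.968) and the non-coding Os03g0698400 (0.968), and their r stayed between 0.96 and 0.971 without OsGRP3KD replicate 2. The genes most like YSL2 were the metallothionein-like Os03g0288000 (r = 0.963), Os06g0119800 (0.944), the oxidoreductase-like Os09g0514100 (0.935), Os11g0161800 (0.923) and the zinc finger gene Os09g0478600 (0.908). Metallothioneins are small cysteine-rich proteins that bind metals, and Os03g0288000 was at 9.84 and 1.74 CPM in OsGRP3KD, against 1.35 and 1.16 CPM in NT Dongjin, and at 1.28 and 0.652 CPM in OsGRP3OE, against 1.99 and 2.61 CPM in NT Nakdong. Without OsGRP3KD replicate 1 the r of these 5 genes with YSL2 was between 0.587 and 0.840, so their likeness rests largely on that library. All these points share libraries and depth, and the r values are descriptions.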

How the data were processed

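Leaf RNA was sequenced from 4 groups of 2 libraries (stranded TruSeq kits, per the labels). The authors aligned reads to rice IRGSP-1.0 with HISAT and quantified RAP-DB genes with StringTie 1.3.4d, per the file headers. The deposited table holds estimated counts, whole numbers that equal coverage times transcript length over a read length of 101, rounded up (the formula gave at least 99.99% of gene values in each library), and the authors' FPKM and TPM values. The other deposited files hold coverage per transcript and exon. Plain counts had been planned for. Counts of near-identical copies and of genes with few reads are approximate, and fitted fold changes of genes near 0 depend on the prior count.

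Genes were filtered with filterByExpr and scaled by TMM, and 1 mean per group was fitted over all 8 libraries with edgeR 4.0.16 (glmQLFit and glmQLFTest, R 4.3.3). A call needed a 2-fold difference and a Benjamini-Hochberg adjusted p below 0.05 over 24383 genes. The sum of FER1 and FER2 and the sum of NAS1 and NAS2 were fitted in the same way. Alternatives were DESeq2 1.42.0, limma 3.58.1 on log2(FPKM + 1) with a mean FPKM of at least 0.5 and with no filter, limma with a pseudocount of 0.1, a gene-by-gene test of quantile-normalized log2(FPKM + 1), median-of-ratios size factors, no filter, at least 10 counts in every library, counts of the 3′-most exon, smaller sets of libraries, a replicate block, and each library left out. Replicate ratios used CPM with 0.1 added. Counting intervals are exact binomial intervals at 95% on estimated counts and cover counting error only. The pipeline was tested on simulated data.

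The 10 genes are all named. Other iron genes were to be named when called in OsGRP3OE against NT Nakdong, or in OsGRP3KD against both NT groups in the same direction, and the genes most like YSL2 and the summed ferritins were the 5 with the highest Pearson r of log2(CPM + 1) among genes with a mean log2 CPM of at least 1. The genes, lists and tests were chosen with earlier results of these data known.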

Additional observations from a re-analysis of the deposited data

Results flagged for a closer look

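The change of NAS3 and that of YSL2 differed between the OsGRP3OE contrast, against NT Nakdong, and the OsGRP3KD contrast, against NT Dongjin, by a test of the difference itself in edgeR. For NAS3 the contrasts differed by -1.10 on the log2 scale, with -0.05 in OsGRP3OE and 1.05 in OsGRP3KD, and NT Dongjin was the group that stood apart in level. For YSL2 they differed by -4.19, with -1.38 in OsGRP3OE and 2.80 in OsGRP3KD, and OsGRP3KD replicate 1 was far above the other libraries. Among all genes tested 34% were called for the same difference.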

How the results depend on the processing

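Over 626 refits of single iron genes, 528 kept their direction and their side of the thresholds, 59 lost a call, 29 gained one and 10 changed sign. The number of the 9 genes called was 0 in OsGRP3OE against NT Nakdong, and it was 2 with no filter on low counts, 2 when OsGRP3OE and NT Nakdong were fitted alone, 2 without the OsGRP3KD group (chosen after seeing the data) and 0 to 3 with single libraries left out. In OsGRP3KD against NT Dongjin it was 7, and 2 with limma on log2(FPKM + 1), 1 with no filter on FPKM, 2 with a pseudocount of 0.1, 0 in the gene-by-gene test, 5 under a filter of 10 counts per library, 5 when OsGRP3KD and NT Dongjin were fitted alone, 3 on 3′-most exon counts and 2 to 7 with single libraries left out. In OsGRP3KD against NT Nakdong it was 0, and 3 with DESeq2, 4 with no filter on low counts and 0 to 4 with single libraries left out. In NT Dongjin against NT Nakdong it was 1, and 0 with limma on log2(FPKM + 1) with or without the filter, in the gene-by-gene test and on 3′-most exon counts, and 0 to 1 with single libraries left out. For the difference of the contrasts it was 2, and 0 with limma on log2(FPKM + 1) with or without the filter, 1 with a pseudocount of 0.1, 1 on 3′-most exon counts and 0 to 2 with single libraries left out. The settings also changed which genes were tested. With OsGRP3OE and NT Nakdong fitted alone 7 were tested, and without the OsGRP3KD group 8. The filter of 10 counts per library left out IRO2, NAS1 and NAS2, and the setting with no filter on low counts added YSL15. The cause of the shifts in the numbers called was not tested.

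Signs turned only when single libraries were left out, with log2 differences from -0.10 to 0.70 for IRO3 and from -0.21 to 0.09 for NAS3 in OsGRP3OE against NT Nakdong, from -0.44 to 0.87 for IRO3 and from -0.66 to 6.18 for NAS2 in OsGRP3KD against NT Dongjin, and from -0.12 to 1.21 for IRO3, -0.35 to 0.26 for NAS3, -0.06 to 3.30 for YSL2, -0.14 to 1.3 for FER1 and -0.12 to 1.46 for FER2 in OsGRP3KD against NT Nakdong. Where a group was left with 1 library, that library was assumed to vary like the other groups.

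The block was the replicate number within each cultivar. Within a cultivar, the deviations of same-numbered libraries from their group means correlated at -0.057 for OsGRP3OE with NT Nakdong and at -0.015 for OsGRP3KD with NT Dongjin. With 2 libraries in a group, these values cannot show whether same-numbered libraries had more in common than the number. With the replicate number as a block, the number called was 1 in OsGRP3OE against NT Nakdong, 1 in OsGRP3KD against NT Nakdong 2 in NT Dongjin against NT Nakdong and 3 for the difference of the contrasts, where NAS1 was gained. The genes with few reads, NAS1, NAS2, IRO2 and IRT1, are limited by depth, and YSL15 could not be tested.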
